A study of Mus musculus with 8 samples.

Results

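Long-term HSC identity genes are described here in MitolΔ/Δ and control HSCs. The set holds 36 genes, chosen by name as transcription factors of hematopoietic stem cells and genes enriched in them, with the markers used for sorting left out. All 36 are among the 22065 named genes of the count table, and all 36 passed the filter on low counts and were tested together with the other genes, 16444 in all.

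The RNA-seq data hold 4 libraries labelled Mitol KO and 4 labelled Control, each made from 100 cells sorted from bone marrow as CD150+ CD48- EPCR+ Lineage-. The authors' definition of long-term HSCs also requires c-Kit, the protein encoded by Kit. The mice were C57BL/6, 8 to 10 weeks old by the labels. MitolΔ/Δ mice carried Mitol Flox/Flox and MX1-cre, a Cre driven by an interferon-inducible promoter, and received Poly:IC. Control mice were littermates with Mitol Flox/Flox but without Cre, and they received Poly:IC too, so both groups share the floxed alleles and the exposure to Poly:IC. HSCs were collected 1 week after Poly:IC. MX1-cre is active in many cells that respond to interferon, so the deletion is not limited to HSCs. The labels do not say whether the 4 libraries of a group came from separate mice, so p-values measure the spread between these libraries.

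Long-term HSCs are the rare bone marrow cells that can rebuild the blood system for life, and most of them are out of the cell cycle. Transcription factors of the ETS, RUNX, basic helix-loop-helix and PR-domain families hold their gene programme, while surface receptors, adhesion proteins and small GTPases link them to the niche, the marrow environment that keeps them quiescent. MITOL, encoded by Marchf5, is a ubiquitin ligase of the mitochondrial outer membrane.

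The targeted gene Marchf5 had normalized counts of 276, 232, 308 and 281 in MitolΔ/Δ replicates 1 to 4 and of 299, 312, 333 and 262 in control replicates 1 to 4. Its log2 fold change was -0.15 (SE 0.13, adjusted p = 0.498), and the groups overlapped. A count over a whole gene does not separate deleted exons from those that remain, so Marchf5 did not check the labels. The groups are named here as labelled, and the authors state that deletion was tested by PCR before mice were counted as MitolΔ/Δ. Counts on named genes summed to 7214935 to 12398138 per library. Of the markers fixed for dividing cells, 8 of 8 were higher in MitolΔ/Δ HSCs, and their summed normalized count ran from 5688 to 12928 in MitolΔ/Δ and from 2850 to 5625 in control libraries. Of the sorting markers, Cd48 (log2 fold change 1.72, adjusted p = 0.0450) was higher and Kit (log2 fold change -0.75, adjusted p = 0.00705) lower. The log2 fold changes of Slamf1 (CD150) and Procr (EPCR) were 0.56 and -0.34 (adjusted p = 0.0501 and 0.179). Cd48 was scarce, at 63.4, 33.3, 39.4 and 22.2 normalized counts in MitolΔ/Δ and 9.23, 11.7, 21.7 and 4.49 in control replicates 1 to 4. The defining genes of neutrophils, B cells, T cells, mast cells and basophils were low or not listed in the table, with summed counts of at most 204 in any library. Stromal genes summed to 132 to 405. Few of these genes passed the filter on low counts, namely 2 stromal genes and 1 gene in each of the lists of neutrophils, B cells, T cells, and mast cells and basophils. Of those tested, 0 were past the threshold by edgeR, DESeq2 or limma-voom, and 0 had an unadjusted p-value under 0.05. Among genes that were too scarce to test, the MitolΔ/Δ libraries lay below all control libraries for S100a9, listed at 0 in all 4 and at 2.64, 21.3, 11.3 and 20.7 in control libraries, and for Cd79a and Pdgfra.

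Among the 36 HSC identity genes, 5 were lower in MitolΔ/Δ HSCs and 0 were higher, as judged with edgeR's quasi-likelihood F test and p-values adjusted after Benjamini and Hochberg over all genes tested, at a limit of 0.05. The lower genes were Angpt1, Gbp8, Pdzk1ip1, Tie1 and Clec1a, 4 of them genes of a ligand or membrane proteins and the other a gene of a GTPase. They make up 13.9% of the members, where 3.75% of all tested genes were lower. Genes past the threshold in either direction were 8.43% of all tested genes, and those that were higher 4.68%. At an unadjusted p-value under 0.05, 15 members were lower and 0 higher, where 12.8% of all tested genes were lower. DESeq2 called 10 members lower and 0 higher, with 6.05% of all tested genes lower, and limma-voom 5 and 0, with 3.88%. With upper quartile factors 9 members were lower, as were 5.14% of all tested genes, and in that fit 41.3% of all called genes were higher, against 55.6% in the fit with TMM factors.

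Of the 36 members, 30 had a negative and 6 a positive log2 fold change. Their median log2 fold change was -0.25, beside -0.02 over all genes tested, of which 52.3% had a negative value. The plot of fold changes shows that most estimates lay between 0 and -0.5, with the transcription factors other than Tcf15 between -0.23 and 0.16 and some membrane proteins below -1. Because bulk libraries were measured, fewer cells that express a gene and less RNA of that gene per cell cannot be told apart.

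**Figure D1:**
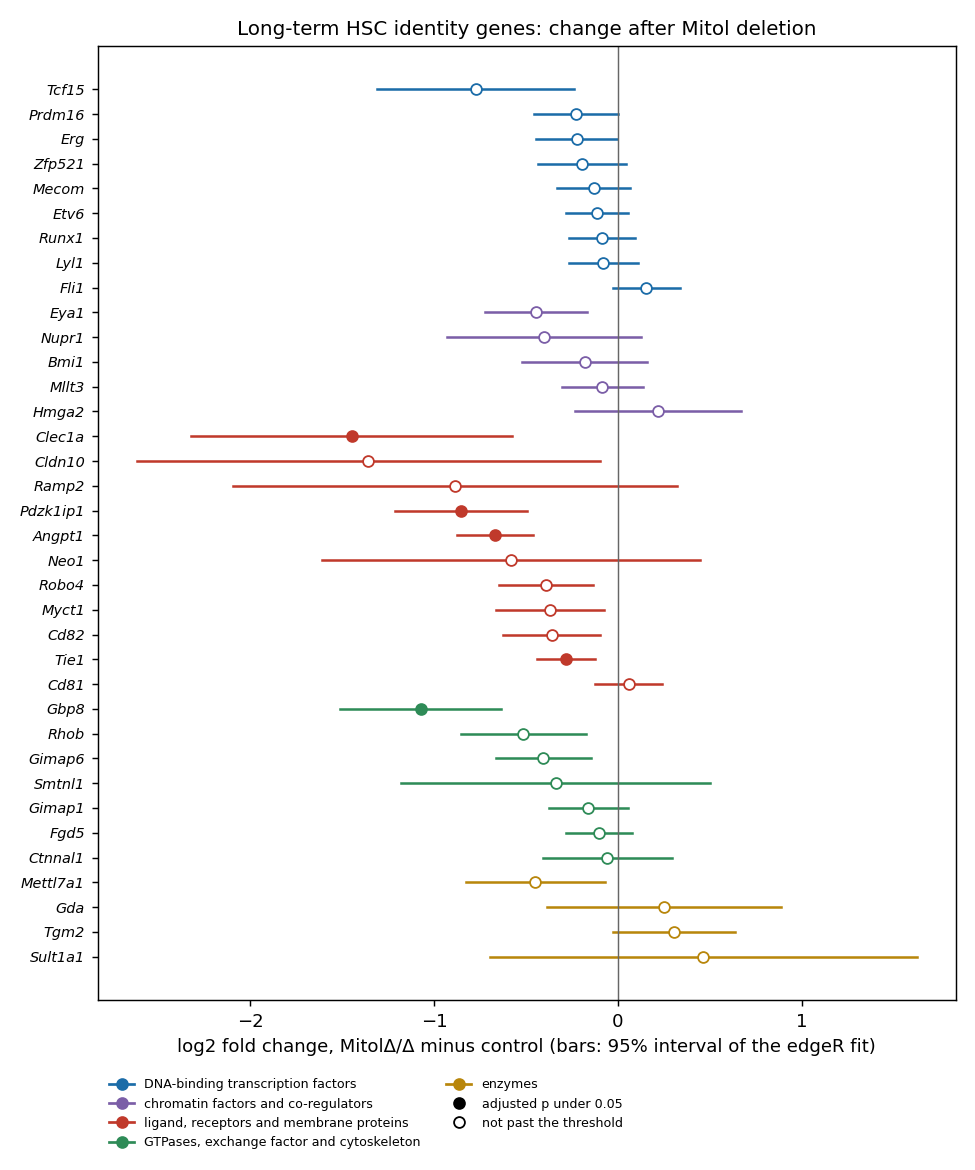
Log2 fold change of each of the 36 members, MitolΔ/Δ minus control, by role, with the 95% interval of the edgeR fit over 4 libraries per group. Filled points mark the 5 members with an adjusted p-value under 0.05, all of them below 0, and 30 of the 36 estimates are negative.

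In 7 members every MitolΔ/Δ library lay below every control library, and in 0 members every one lay above. These are Angpt1, Gbp8, Pdzk1ip1, Tie1, Eya1, Rhob and Cd82. Over all genes tested, the groups did not overlap in 15.4%, with the MitolΔ/Δ libraries below in 7.18% and above in 8.17%. With 4 libraries against 4, the exact permutation test over 70 arrangements cannot give a 2-sided p-value below 0.0286, which is the value for each of the 7. Clec1a, which passed the threshold of edgeR, had overlapping groups.

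**Figure D2:**
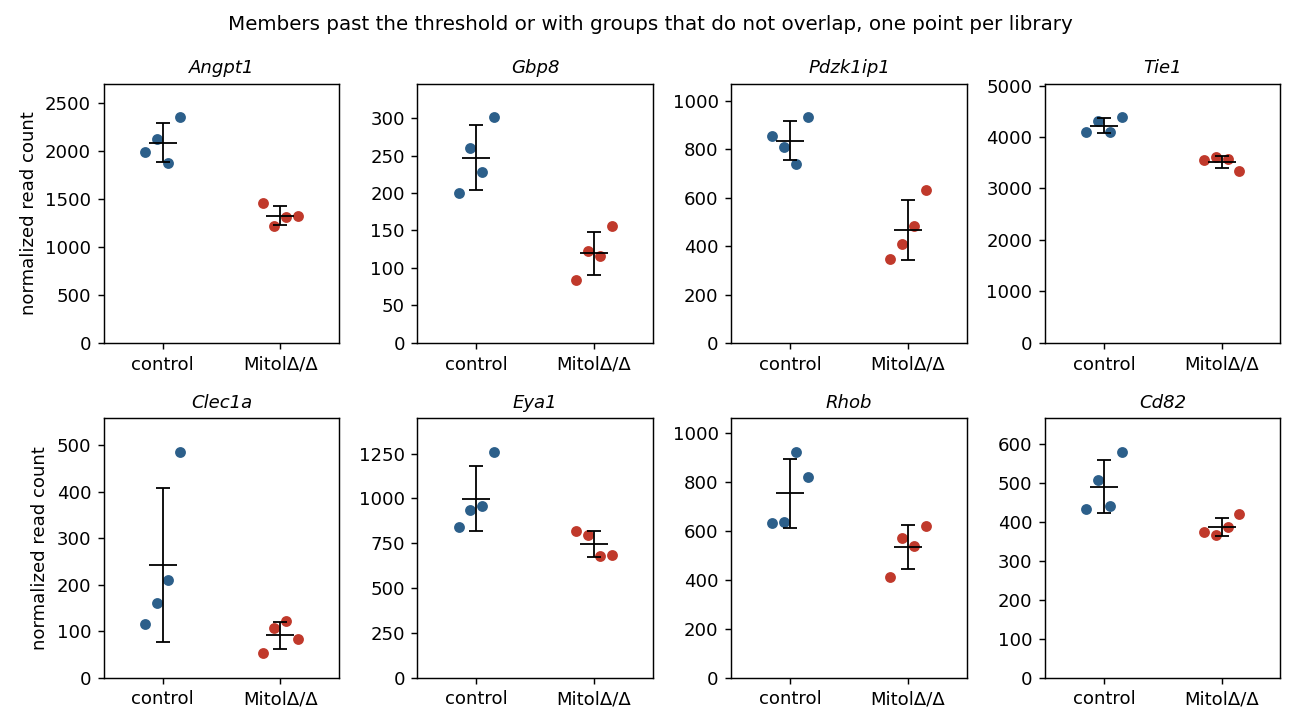
Normalized read counts of the 8 members that were past the threshold or had groups that did not overlap, with points for single libraries and bars for the mean and SD of 4 libraries. In Angpt1, Gbp8, Pdzk1ip1, Tie1, Eya1, Rhob and Cd82 the groups are apart, while Clec1a overlaps and has a control library at 485.

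Angpt1 encodes angiopoietin 1, the secreted ligand of the receptor tyrosine kinase TEK (TIE2). It lies on chromosome 15 of GRCm39 from 42288058 to 42540417 on the minus strand. Its normalized counts were 1459, 1221, 1316 and 1324 in MitolΔ/Δ replicates 1 to 4 and 1994, 2132, 1877 and 2354 in control replicates 1 to 4. The highest MitolΔ/Δ library was thus well below the lowest control library. The mean was 1330 ± 97.9 (SD, n = 4) in MitolΔ/Δ HSCs and 2089 ± 205 (SD, n = 4) in control HSCs. The log2 fold change was -0.67 (SE 0.09, 95% interval -0.88 to -0.46, adjusted p = 0.00428), the lowest p-value of the 36 members. Angpt1 was past the threshold in 8 of 8 fits that left out a library. A gene model on the opposite strand, Gm17473, overlaps 11.3% of its exon bases.

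Tie1 encodes the orphan receptor tyrosine kinase that pairs with TEK and modulates angiopoietin signals. It lies on chromosome 4 from 118328385 to 118347261 on the minus strand. The MitolΔ/Δ libraries held 3553, 3609, 3565 and 3344 normalized counts and the control libraries 4101, 4313, 4094 and 4380. The difference was small but the spread within each group was smaller, 3518 ± 118 (SD, n = 4) against 4222 ± 146 (SD, n = 4). Its log2 fold change was -0.28 (SE 0.07, adjusted p = 0.0346). Tie1 was past the threshold in 0 of 8 fits that left out a library, with log2 fold changes between -0.30 and -0.24. It was not called either when the filter on low counts was left out.

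Pdzk1ip1 encodes MAP17, a small membrane protein that binds PDZ-domain scaffolds. It lies on chromosome 4 from 114945905 to 114951096 on the plus strand. Its normalized counts were 347, 408, 485 and 633 in MitolΔ/Δ replicates 1 to 4 and 857, 812, 740 and 932 in control replicates 1 to 4. MitolΔ/Δ replicate 4 was nearest to the control libraries but still below all of them. The mean was 468 ± 123 (SD, n = 4) against 835 ± 80.5 (SD, n = 4), and the log2 fold change was -0.85 (SE 0.17, adjusted p = 0.0145). It was called in 8 of 8 fits that left out a library.

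Clec1a encodes a C-type lectin-like receptor. The gene lies on chromosome 6 from 129383906 to 129428963 on the minus strand. Its normalized counts were 54.0, 106, 121 and 82.5 in MitolΔ/Δ libraries and 115, 161, 210 and 485 in control libraries. MitolΔ/Δ replicate 3 exceeded control replicate 1, and control replicate 4 held more than any other library. The log2 fold change was -1.45 (SE 0.40, adjusted p = 0.0451), yet it was past the threshold in 1 of 8 fits that left out a library, and without control replicate 4 it was -0.86. By limma-voom the adjusted p-value was 0.0686. Genes on the opposite strand, Clec1b and Clec9a, overlap 36.8% of its exon bases, and whether the counting used strand is not given in the sources used here.

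Gbp8 encodes a guanylate-binding protein of a family of interferon-induced GTPases. It lies on chromosome 5 from 105162016 to 105287452 on the minus strand. Its normalized counts were 84.5, 123, 115 and 156 in MitolΔ/Δ replicates 1 to 4 and 200.5, 260, 228 and 301 in control replicates 1 to 4. Every MitolΔ/Δ library was lower than every control library. The mean was 119.5 ± 29.1 (SD, n = 4) against 247 ± 43.2 (SD, n = 4). The log2 fold change was -1.07 (SE 0.20, adjusted p = 0.0127), and it was called in 8 of 8 fits that left out a library. Of the words of 75 bases in its transcripts, 6.69% also occur in transcripts of other genes, Gbp10, Gbp9, Gbp4 and Gbp11, so its reads may be shared with them.

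The 250 bases before the transcription start of Angpt1, Pdzk1ip1 and Gbp8 are printed because these are the 3 members that were past the threshold in every fit run. The sequences are from GRCm39, 5′ to 3′ on the strand of the gene, before the start of the Ensembl canonical transcript of GENCODE. Capitals mark the ETS core GGAAG and the E-box CAGNTG, the words bound by ETS factors and by basic helix-loop-helix factors, on either strand. E-box here means CAGNTG alone, and E-boxes of other letters, such as CACGTG, were not marked or counted. The Gbp8 window lies inside the gene model, since other transcripts of that gene start further upstream.
Angpt1, chr15:42540418-42540667, minus strand: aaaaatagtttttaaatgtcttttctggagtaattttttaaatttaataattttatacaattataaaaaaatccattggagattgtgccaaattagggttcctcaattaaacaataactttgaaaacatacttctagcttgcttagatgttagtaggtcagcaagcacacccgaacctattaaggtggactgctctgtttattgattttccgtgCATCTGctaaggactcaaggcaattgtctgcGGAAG
Pdzk1ip1, chr4:114945655-114945904, plus strand: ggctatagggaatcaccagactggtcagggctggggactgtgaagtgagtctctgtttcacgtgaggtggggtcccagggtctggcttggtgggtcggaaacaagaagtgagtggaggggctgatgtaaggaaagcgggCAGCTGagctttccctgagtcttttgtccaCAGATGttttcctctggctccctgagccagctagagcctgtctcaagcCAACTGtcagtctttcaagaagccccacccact
Gbp8, chr5:105198914-105199163, minus strand: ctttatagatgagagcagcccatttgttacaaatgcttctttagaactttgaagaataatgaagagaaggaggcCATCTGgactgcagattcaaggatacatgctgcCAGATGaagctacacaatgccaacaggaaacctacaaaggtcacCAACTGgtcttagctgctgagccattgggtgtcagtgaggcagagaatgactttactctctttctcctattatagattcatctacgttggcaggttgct

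The Angpt1 window holds 1 ETS core, directly before the start, and 1 E-box, while the Pdzk1ip1 and Gbp8 windows hold 3 E-boxes each and no ETS core. Over the 5 lower members, 3 windows hold an ETS core and 4 an E-box, and 0 hold the RUNX word TGTGGT or the GATA word AGATAA. No match overlaps another in these 5 windows. Over 35 members with a window, an ETS core was found in 60.0%, an E-box in 51.4%, the RUNX word in 14.3% and the GATA word in 14.3%. Over 21757 windows of protein-coding genes, the shares were 63.8%, 43.1%, 13% and 9.61%. The members' shares are thus near those of all promoters, and a match of letters in a window is a description only.

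The remaining 7 membrane proteins did not pass the threshold by edgeR, and 6 of them had negative values. Robo4, a roundabout receptor known from endothelium and HSCs, had normalized counts of 1046, 1082, 1110 and 1459 in MitolΔ/Δ and 1461, 1725, 1396 and 1502 in control libraries, with a log2 fold change of -0.39 (edgeR, adjusted p = 0.0579). DESeq2 and limma-voom called it lower, with adjusted p-values of 0.0309 and 0.0498. MitolΔ/Δ replicate 4 alone reached the control range. Cd82, a tetraspanin linked to HSC quiescence, had 374, 366, 386 and 420 against 433, 507, 441 and 578, with no overlap and a log2 fold change of -0.36 (adjusted p = 0.0834). Cd81, another tetraspanin, had group means of 2703 and 2560 in MitolΔ/Δ and control HSCs, and its log2 fold change of 0.06 turned negative in 1 of the alternative fits.

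Myct1, a membrane protein of endothelium and HSCs, had means of 637 ± 94.6 and 814 ± 131 (SD, n = 4 each) in MitolΔ/Δ and control HSCs. The rest of this class was scarce or variable. Neo1, a receptor of netrins and repulsive guidance molecules, had means of 141 ± 88.1 and 207 ± 131. Cldn10, a claudin of tight junctions, had 6.20 ± 3.27 and 15.8 ± 8.14. Ramp2, the accessory protein of the adrenomedullin receptor, had 9.18 ± 4.85 and 16.8 ± 8.07. These means and SDs are each over 4 libraries. None of these 4 passed the threshold by edgeR, with adjusted p-values of 0.107 to 0.466. Ramp2 shares 28.5% of its exon bases with Vps25 on the same strand.

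Several genes of this class are also expressed by endothelial cells. The 9 endothelial marker genes summed to 117 to 278 normalized counts in MitolΔ/Δ and 91.4 to 204 in control libraries, and 0 of the 6 that could be tested were past the threshold by edgeR, DESeq2 or limma-voom or had an unadjusted p-value under 0.05. Pf4, a chemokine gene of megakaryocytes, was lower in MitolΔ/Δ HSCs (log2 fold change -1.69, adjusted p = 0.0202). Other megakaryocyte genes had values of either sign. Gp1ba, Gp5 and Gp9 had log2 fold changes of -0.27, -0.61 and -0.45, and Itga2b, Itgb3 and Treml1 of 0.49, 0.27 and 0.26. Neither these negative nor these positive genes were past the threshold by edgeR. The dividing-cell markers were higher, as given above. Pf4 and these markers moved with the groups beside the membrane proteins, and their part in these differences was not tested.

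Of the 9 DNA-binding transcription factors, 0 passed the threshold by edgeR, and 8 had a negative log2 fold change. At an unadjusted p-value under 0.05 there were 2, Tcf15 and Erg, and DESeq2 called 1, Tcf15, while limma-voom called 0. The median log2 fold change of the class was -0.13. The summed normalized count of the 9 genes ran from 25172 to 27550 in MitolΔ/Δ and from 27111 to 27881 in control libraries.

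Mecom encodes zinc finger proteins needed for long-term HSCs. It had 4244, 4149, 3816 and 4341 normalized counts in MitolΔ/Δ and 3943, 5181, 4391 and 4385 in control libraries. The groups overlapped, and the log2 fold change was -0.13 with a 95% interval of -0.33 to 0.07. Prdm16, a related PR-domain factor that sustains HSCs, had 1326, 1342, 1368 and 1792 against 1713, 1602, 1769 and 1647. In MitolΔ/Δ replicates 1 to 3 it lay below all control libraries, and in replicate 4 above all of them. Its log2 fold change was -0.23 (adjusted p = 0.196), and without MitolΔ/Δ replicate 4 it was -0.32 and past the threshold. Zfp521, a zinc finger protein of immature blood cells, had 1083, 1166, 1321 and 1511 against 1560, 1367, 1478 and 1337, with overlapping groups and a log2 fold change of -0.19.

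The 3 ETS factors among the members had log2 fold changes of either sign. Erg, needed for HSC self-renewal, had 1595, 1534, 1412 and 1823 normalized counts in MitolΔ/Δ and 1883, 1683, 1712 and 2057 in control libraries (log2 fold change -0.22, 95% interval -0.44 to -0.01, adjusted p = 0.180). Fli1, its close relative, had 2065, 2385, 2229 and 2352 against 2210, 1922, 1976 and 1899 (log2 fold change 0.16, 95% interval -0.03 to 0.34, adjusted p = 0.263). Etv6, an ETS repressor that adult HSCs require, had 8777, 8493, 8140 and 9349 against 9396, 8731, 10102 and 8917 (log2 fold change -0.11, 95% interval -0.28 to 0.06). In all 3 the groups overlapped, and the difference between Erg and Fli1 was not tested.

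Runx1, the factor required for HSCs to arise in the embryo, had 4615, 5067, 5617 and 4886 normalized counts in MitolΔ/Δ and 5389, 5379, 5007 and 5392 in control libraries. Its log2 fold change was -0.09, with a 95% interval of -0.27 to 0.09. Lyl1, a basic helix-loop-helix relative of TAL1, had 1410, 1184, 1274 and 1456 against 1401, 1405, 1374 and 1373, with a log2 fold change of -0.08. Both genes had MitolΔ/Δ libraries on either side of the control range. Tcf15, a basic helix-loop-helix factor linked to HSC quiescence, was scarce, at 55.6, 46.8, 42.1 and 40.2 against 83.1, 55.3, 71.6 and 102. MitolΔ/Δ replicate 1 exceeded control replicate 2 by less than 1 count, and the other libraries were apart. The log2 fold change of Tcf15 was -0.77 (SE 0.25, adjusted p = 0.0701), the lowest of the class.

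The heat map of the members by library shows where the groups part. In MitolΔ/Δ replicates 1, 2 and 3, 21, 23 and 23 of the 36 members lay below the lowest control library, and in replicate 4 it was 13. The same counts were not made over all genes tested, so these numbers compare the libraries and do not set the members apart from other genes. The median member lay at -0.32, -0.33 and -0.31 on the log2 scale relative to the control mean in MitolΔ/Δ replicates 1, 2 and 3 and at -0.06 in replicate 4. In control libraries the median member ran from -0.05 to 0.04. MitolΔ/Δ replicate 4 was thus near the controls for the median member, while Angpt1, Gbp8, Pdzk1ip1 and Tie1 were below the control range in it. The summed dividing-cell markers were 12928, 12200, 9747 and 5688 in MitolΔ/Δ replicates 1 to 4, so the same library had the lowest sum of the group, and the part of this in the members' values was not tested. Without MitolΔ/Δ replicate 4, 8 members were lower, namely Angpt1, Gbp8, Pdzk1ip1, Prdm16, Myct1, Robo4, Rhob and Mettl7a1. In the same fit, 6.03% of all tested genes were lower.

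**Figure D3:**
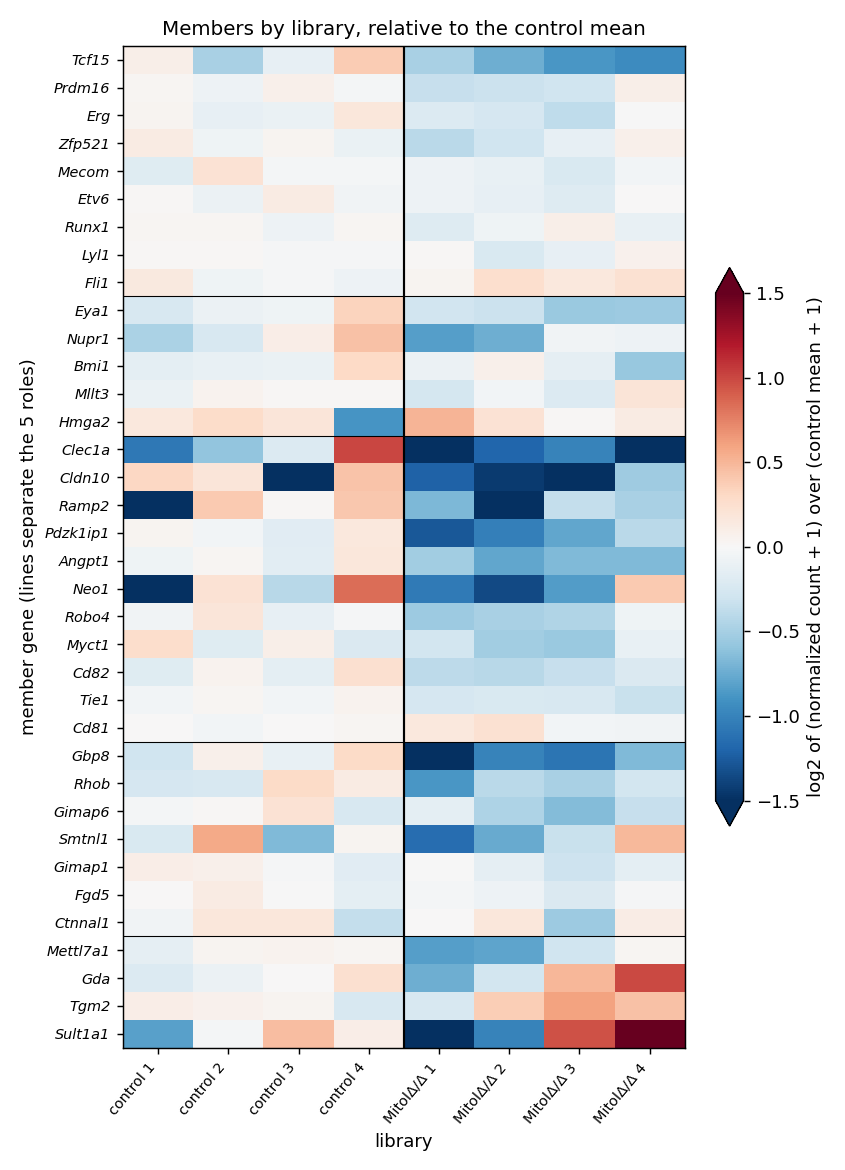
Log2 ratio of each member's normalized count, plus 1, to the control mean, plus 1, in the 8 libraries, with the 5 roles set apart by lines and colors capped at -1.5 and 1.5. MitolΔ/Δ replicates 1, 2 and 3 are blue for most members, and replicate 4 is close to the control libraries, with a median of -0.06.

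Of the 5 chromatin factors and co-regulators, 0 passed the threshold by edgeR, 1 had an unadjusted p-value under 0.05, and DESeq2 called 1 and limma-voom 0. This gene was Eya1, a transcriptional co-activator with a phosphatase domain that partners homeodomain proteins of the sine oculis family. It lies on chromosome 1 from 14239167 to 14380543. Its normalized counts were 816, 795, 679 and 682 in MitolΔ/Δ and 841, 937, 956 and 1257 in control libraries. The groups did not overlap, though MitolΔ/Δ replicate 1 and control replicate 1 were close. The log2 fold change was -0.45 (SE 0.13, adjusted p = 0.0502), just outside the threshold.

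The other 4 chromatin factors showed overlapping groups. Bmi1, a Polycomb protein needed for HSC self-renewal, had means of 326 ± 58.2 in MitolΔ/Δ and 364 ± 56.8 in control HSCs (SD, n = 4 each). Mllt3, a reader of acylated histones that maintains HSCs, had 3806 ± 556 and 3987 ± 181, with a log2 fold change of -0.09. Hmga2, an architectural DNA-binding protein known from fetal HSCs, had 687 ± 105 and 584 ± 181, with control replicate 4 at 315. Nupr1, a small stress-induced nuclear protein, had 152 ± 43.1 and 198 ± 55.8. Of the exon bases of Nupr1, 21.8% overlap a gene model on the opposite strand, and 8.2% of the words of 75 bases of Bmi1 also occur in Gm5946.

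Of the 7 GTPases, exchange factors and cytoskeletal proteins, all had a negative log2 fold change, with a median of -0.34, and Gbp8 alone was past the threshold by edgeR, while DESeq2 also called Rhob and Gimap6. Rhob, an endosomal small GTPase, lies on chromosome 12 from 8547661 to 8550009. It had 411, 570.5, 539 and 622 normalized counts in MitolΔ/Δ and 634, 637, 922 and 821 in control libraries. The groups did not overlap, with a log2 fold change of -0.51 (SE 0.16, edgeR, adjusted p = 0.0605; DESeq2, 0.0263). Gimap6, a GTPase of immune-associated proteins, had means of 1938 ± 286 and 2534 ± 333 in MitolΔ/Δ and control HSCs (log2 fold change -0.41, edgeR, adjusted p = 0.0556; DESeq2, 0.0294).

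Fgd5, an exchange factor for the GTPase CDC42 whose expression marks HSCs, had means of 2228 ± 140 and 2362 ± 178 in MitolΔ/Δ and control HSCs. Its log2 fold change of -0.10 had a 95% interval of -0.28 to 0.08. Gimap1, whose locus overlaps an opposite-strand transcript over 39.1% of its exon bases together with Gm28053, had 748 ± 65.2 and 826 ± 68.9. Ctnnal1, the alpha-catulin that marks HSCs in reporter mice, had 557 ± 114 and 571 ± 94.5, with a log2 fold change of -0.06 whose sign turned in 3 alternative fits. Smtnl1, a smoothelin-like protein of muscle, was scarce, at 40.1 ± 21.1 and 49.7 ± 18.4.

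Of the 4 enzymes, 0 passed the threshold by edgeR, DESeq2 or limma-voom, with 1 (Mettl7a1) at an unadjusted p-value under 0.05. Sult1a1, a phenol sulfotransferase, had normalized counts of 146, 215, 842 and 1228 in MitolΔ/Δ and 245, 426, 599 and 463 in control libraries. MitolΔ/Δ replicates 1 and 2 lay below and replicates 3 and 4 above every control library. Gda, the guanine deaminase, had the same arrangement, with 315, 435, 744 and 1051 against 458, 497, 528 and 623.

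For Sult1a1 the log2 fold change was 0.47 with a 95% interval of -0.69 to 1.63, and for Gda it was 0.25 with an interval of -0.38 to 0.89, and the sign turned in 2 alternative fits for Sult1a1 and in 1 for Gda. Mettl7a1, a methyltransferase-like protein, was at 405, 415, 586 and 733 in MitolΔ/Δ and at 655, 743, 746 and 736 in control libraries. Here too replicates 1 and 2 were the lowest, and replicate 4 was within the control range (log2 fold change -0.45, adjusted p = 0.123). Tgm2, a transglutaminase that crosslinks proteins, had means of 3778 ± 860 and 3018 ± 309 (log2 fold change 0.31, adjusted p = 0.223), while genes on the opposite strand overlap 21.0% of its exon bases and 15.3% of those of Sult1a1. Tgm2 stood in MitolΔ/Δ replicate 1 at 2561, just below the lowest control library at 2564, and replicates 2 to 4 above all control libraries. Without MitolΔ/Δ replicate 1 it was past the threshold as higher. Red-cell genes summed to 1065, 1121, 5016 and 2393 in MitolΔ/Δ replicates 1 to 4 and to 468 to 909 in control libraries, with Hbb-bt past the threshold as higher among 5 tested, so the libraries with most Sult1a1 and Gda also had most of these. In replicate 3 the sum was mainly of Hbb-bt (1432), Slc4a1 (1387) and Hbb-bs (1048), and in replicate 4 of Hbb-bt (1408) and Car1 (523). Itga2b had 286, 351, 1111 and 1440 in MitolΔ/Δ replicates 1 to 4 and 519 to 589 in control libraries, and Itgb3 had 212, 196, 1066 and 1771 in MitolΔ/Δ replicates 1 to 4 and 360 to 1026 in control libraries. Within the MitolΔ/Δ libraries, these megakaryocyte genes had the same order of low and high libraries as Sult1a1, apart from replicates 1 and 2 of Itgb3. In control replicates 1 to 4, Itgb3 had 360, 725, 1026 and 550, an order that differed from that of Sult1a1 in replicates 2 and 4 alone. Itga2b had 560, 519, 570 and 589 there, another order. These megakaryocyte genes were singled out after their values were seen, and the part of either cell type was not tested.

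**Figure D4:**
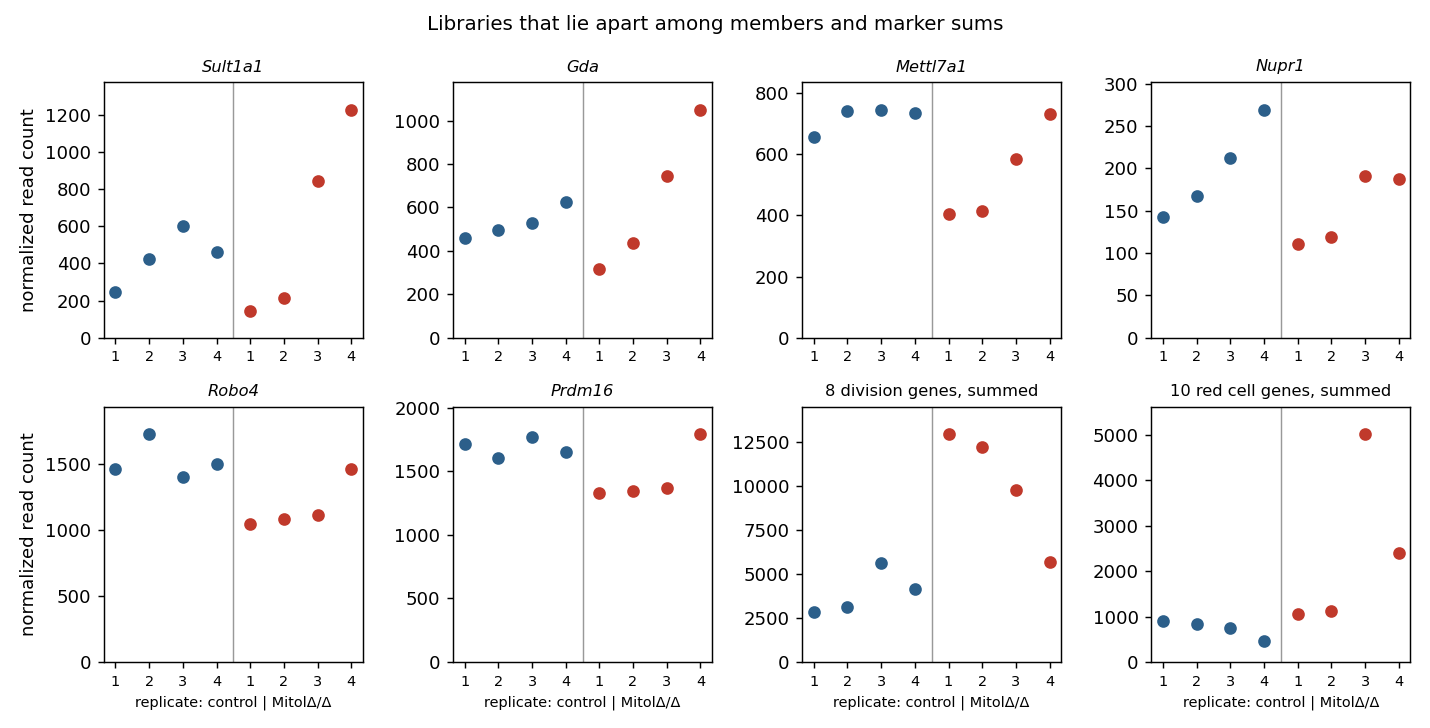
Normalized read counts by library of 6 members whose MitolΔ/Δ libraries lay apart from each other, and summed counts of the 8 dividing-cell and 10 red-cell marker genes. Sult1a1 and Gda are below the control range in MitolΔ/Δ replicates 1 and 2 and above it in replicates 3 and 4, and Robo4 and Prdm16 are higher in replicate 4 than in the other 3.

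Levels were compared between members as normalized counts per kilobase of exon, for the 35 members that matched a gene of GENCODE vM39 by symbol. The highest levels in control HSCs were those of Etv6, at 1153 ± 75.9 per kilobase (SD, n = 4), and Tie1, at 844 ± 29.2. Cd81 (680 ± 15), Gimap6 (659 ± 86.8) and Tgm2 (631 ± 64.6) followed and did not differ beyond their spread. Pdzk1ip1 (470 ± 45.2), Lyl1 (465 ± 5.61) and Fli1 (457 ± 32.6) also stood at like levels in control HSCs. In MitolΔ/Δ HSCs, Pdzk1ip1 stood at 263 ± 69.4 per kilobase, Lyl1 at 446 ± 41.9 and Fli1 at 516 ± 33.1.

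Angpt1 (291 ± 28.5 per kilobase) and Robo4 (287 ± 26.9) were neighbors in control HSCs, and Gbp8 (54.9 ± 9.58) was near Tcf15 (57 ± 14.4). The lowest levels were those of Smtnl1, at 10.5 ± 3.91, Cldn10, at 5.24 ± 2.7, and Ramp2, at 4.22 ± 2.03. The members called lower thus ranged in control HSCs from the second place of 35 (Tie1) to place 31 (Clec1a, at 24.8 ± 17).

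**Figure D5:**
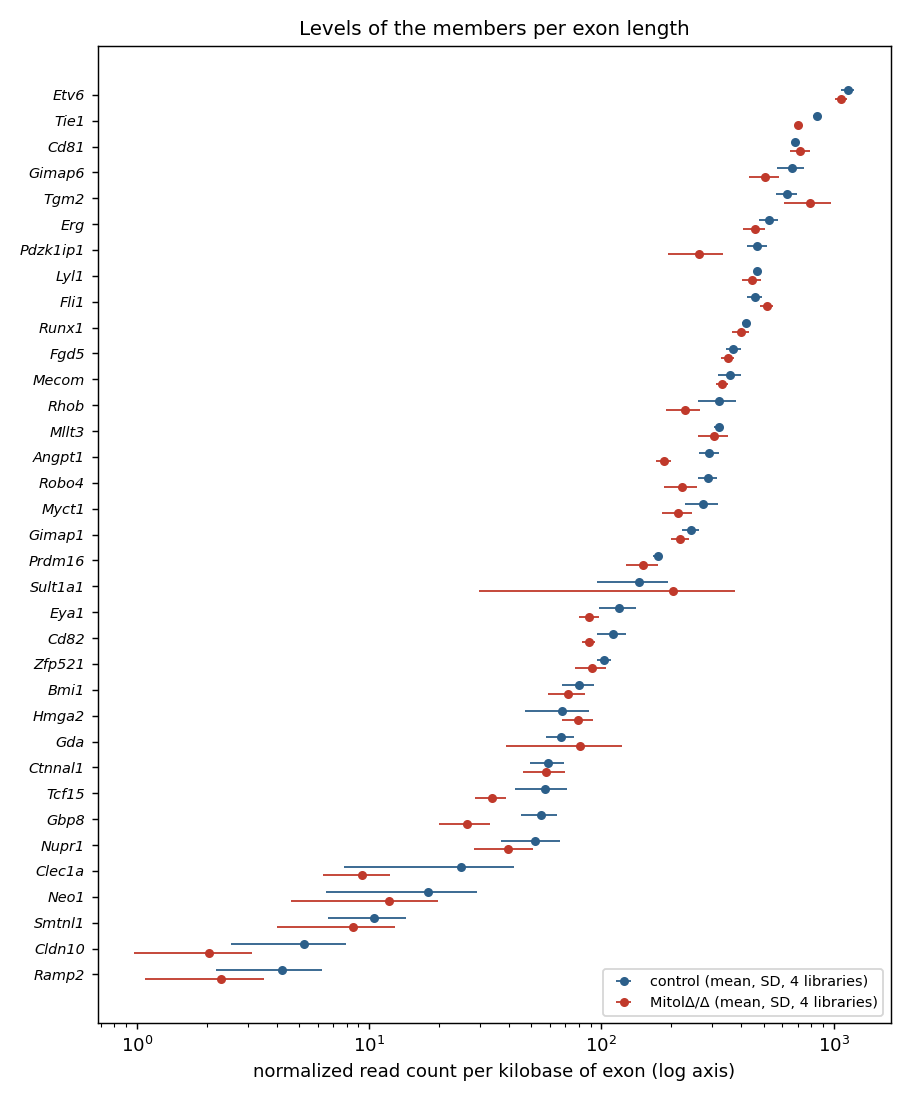
Normalized counts per kilobase of exon of 35 members on a log axis, as mean and SD of 4 libraries per group, ordered by the control level. Etv6 is highest at 1153 and Ramp2 lowest at 4.22 in control HSCs. Pdzk1ip1, Angpt1, Gbp8 and Tie1 have lower MitolΔ/Δ means whose bars are clear of the control bars. The same holds for some members that were not past the threshold by edgeR, such as Cd82 and Tcf15.

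Partners and family relatives of the members were followed in 5 lists of 103 genes, of which 95 are in the table and 89 were tested. Of these, 14 were lower and 2 higher in MitolΔ/Δ HSCs by edgeR, or 15.7% and 2.25%, with a median log2 fold change of -0.10. Over all genes tested, 3.75% were lower and 4.68% higher, with a median of -0.02. Among the HSC identity genes, 13.9% were lower, so a larger share of lower genes was not particular to them.

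A list of 9 genes held factors and adaptors that act in complexes with LYL1, ERG, FLI1 or RUNX1, and the RUNX1 paralogs Runx2 and Runx3. Of the 9, 3 were lower. Gata2, the GATA factor of HSCs, had 3609 ± 476 normalized counts in MitolΔ/Δ and 4677 ± 121 in control HSCs (log2 fold change -0.39, adjusted p = 0.0287). Ldb1, a bridging protein, and Lmo2, the LIM-only adaptor of the same complex, had log2 fold changes of -0.32 and -0.34 (adjusted p = 0.0351 and 0.0496). In all 3 the groups did not overlap, yet each was past the threshold in 1 of 8 fits that left out a library. Of 8 other ETS factors, Elf1 was lower (log2 fold change -0.29, adjusted p = 0.0436), a call kept in 2 of 8 fits that left out a library.

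Chromatin partners were lower in 4 of 31 cases. Eya2, the paralog of Eya1, had 686, 641, 596 and 709 normalized counts in MitolΔ/Δ and 1125, 1275, 1248 and 1280 in control libraries. The groups were far apart, and the log2 fold change was -0.92 (SE 0.09, adjusted p = 0.00134), called in 8 of 8 fits that left out a library. Igf2bp2, an RNA-binding protein that HMGA2 is known to induce, was lower, at a log2 fold change of -0.88 (adjusted p = 0.0170), while Hmga2 itself had 0.22 without passing. The Polycomb readers Cbx7 and Cbx6, which share a complex with BMI1, had log2 fold changes of -0.69 and -0.35 (adjusted p = 0.0394 and 0.0202). With a library left out, Igf2bp2 was called in 6 of 8 fits, Cbx7 in 2 and Cbx6 in 4.

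Among 19 ligands, receptors and tetraspanins, 2 were higher and 1 lower. The tetraspanins Cd53 (log2 fold change 2.00, adjusted p = 0.00849) and Cd151 (log2 fold change 0.39, adjusted p = 0.0473) were higher, whereas their relatives Cd81 and Cd82 among the members had values of 0.06 and -0.36. Cd53 was past the threshold in 8 of 8 fits that left out a library and Cd151 in 1. Ramp1, the relative of Ramp2 that forms the receptor of calcitonin gene-related peptide, was lower (log2 fold change -0.47, adjusted p = 0.0158), and in 7 of 8 fits that left out a library.

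Among 22 relatives of the GTPases and enzymes, 5 were lower and 0 higher by edgeR, while 1 had an unadjusted p-value under 0.05 and a positive value. The 5 were Fgd4 (log2 fold change -0.47), Gimap5 (-0.42), Gimap8 (-0.48), Gbp4 (-1.51) and Mettl7a3 (-2.16), with adjusted p-values of 0.0293 to 0.0449. Of 8 fits that left out a library, Fgd4 and Gbp4 were called in 3 each, Gimap5 in 2, and Gimap8 and Mettl7a3 in 1 each. Gbp4 had overlapping groups and shares sequence with Gbp8, and Mettl7a3 had at most 22.5 normalized counts in any library.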

How the data were processed

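RNA-seq was done on 100 sorted HSCs per library, with 4 MitolΔ/Δ and 4 control libraries. The authors primed cDNA synthesis with not-so-random primers, aligned single-end reads to mm39 with STAR, merged files with SAMtools and deposited the counts of the Subread package per gene, without normalization. The tools and the build are those named in the submitters' processing notes. The annotation and the strand setting are not given in the sources used here, so reads of a gene and its antisense partner cannot be told apart. The table lists 23094 rows with at least 11 counts in total, and 1029 rows without a gene symbol, 0.335% to 0.467% of a library's counts, stayed out.

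Counts were tested by edgeR (version 4.0.16, quasi-likelihood F test) on TMM factors with condition as the sole term. Low genes were dropped by the package's default, and p-values of the 16444 genes left were adjusted after Benjamini and Hochberg, with a limit of 0.05. The SE of a log2 fold change is its size divided by the square root of the F statistic. Normalized counts are counts divided by size factors of DESeq2 (version 1.42.0), and limma (version 3.58.1) was run with voom. Single genes were also compared by 2-sided exact permutation tests. The fit was tested on simulated data. The members and all lists were chosen with earlier results of these data known. Every member is named, with values in every library for those past the threshold or with groups that do not overlap and for the transcription factors, and others by group means. Partner and marker genes are named where past the threshold, at most 5 a list. Single further genes were named after their values were seen, such as Slamf1, Procr and members with libraries that lay apart. GENCODE vM39 on GRCm39, the same build as mm39, gave positions and exon lengths for 35 of 36 members by symbol, and not for Mettl7a1. As alternatives, other normalization factors, no filter, DESeq2, limma-voom, a replicate block, another threshold and fits without each library in turn were run. Library totals ran from 7214935 to 12398138 counts. Precision is limited by 4 libraries per group and 100 cells per library, and, with no molecular identifiers, reads do not count molecules independently. A result for 1 marker gene, and the summed level of its list, are not reported here.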

Additional observations from a re-analysis of the deposited data

Results flagged for a closer look

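Over the 36 members, 72 groups of 4 libraries were examined for a library far from the other 3, by Dixon's test at the 95% level, and 6 groups were marked. Chance marks about 1 in 20 groups. In MitolΔ/Δ HSCs, replicate 4 held 1792 normalized counts of Prdm16, where the other 3 libraries held 1326 to 1368. The same library held 1459 of Robo4, where the others held 1046 to 1110. In control HSCs, replicate 3 held 5007 of Runx1, below the other 3 at 5379 to 5392, and replicate 1 held 655 of Mettl7a1, below 736 to 746. Control replicate 4 held 449 of Bmi1, above 330 to 340, and 315 of Hmga2, below 653 to 704. No explanation of these libraries was tested.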

How the results depend on the processing

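Over the alternatives run, all fits kept a negative median log2 fold change of the members, from -0.32 to -0.21. The number of members lower in MitolΔ/Δ HSCs was 5 in the reported fit, 9 with upper quartile factors, 9 with library size only, 10 with DESeq2 and 11 at an adjusted p-value under 0.1, where 3.75%, 5.14%, 5.04%, 6.05% and 7.24% of all tested genes were lower. It ran from 3 to 8 with a library left out. The number of members higher was 0 and ran from 0 to 1 with a library left out, and that member was Tgm2. Angpt1, Gbp8 and Pdzk1ip1 were called in every fit. Without control replicate 2 the calls over all genes fell to 167 higher and 192 lower, and without MitolΔ/Δ replicate 4 they rose to 1482 and 1019. Members with groups that did not overlap were 7, 11 on counts scaled by library totals, and 7 to 13 with a library left out. Beside the 7, the share over all genes tested was 15.4%. It was not computed for the other settings, so those counts cannot be set against it. Partner genes that were higher were 2, 1 with upper quartile factors, 1 with library size only, 1 without the filter, 7 with DESeq2, 7 at an adjusted p-value under 0.1, and 1 to 9 with a library left out. Over all genes, those higher were 770, 594, 602, 766, 1322 and 1395 in the same order, and 167 to 1482 with a library left out. Partner genes that were lower were 14, 9 without the filter, 22 at an adjusted p-value under 0.1, and 1 to 20 with a library left out. Over all genes, those lower were 616, 491 and 1190 in the same order, and 192 to 1019 with a library left out. The cause of these changes was not tested, other than that fewer libraries or a wider threshold enter by construction. Library size only was added after seeing the data, as were TMM factors for the overlap of groups, which gave 7.

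With the replicate number as a block, 6 members were lower, Angpt1, Gbp8, Pdzk1ip1, Clec1a, Robo4 and Rhob, while Tie1 was not called (adjusted p = 0.0632), and the calls over all genes were 957 higher and 695 lower. The labels do not say whether libraries with the same number share anything else. Their deviations correlated by 0.08, -0.07, 0.05 and 0.07, and 2 of 4 matched best with their own number. With 4 such pairs this does not decide whether the numbers pair the libraries. Of the scalings, upper quartile factors moved the median log2 fold change of all genes most, by -0.06. Depth limits Cldn10 and Ramp2, each at most 22.5 normalized counts in any library.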
